A study of Homo sapiens with 15 samples.

Results

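The genes that encode inhibitors of cyclin-dependent kinases (CDKs), the enzymes that drive the cell cycle, were read in 15 RNA sequencing libraries of HT-1080, a cell line from a human fibrosarcoma. The 8 genes are CDKN1A, CDKN1B, CDKN1C, CDKN2A, CDKN2B, CDKN2C, CDKN2D and CDKN3. They were found by matching their symbols to the Ensembl identifiers of the count table, where they are 8 of 60670 genes, and all 8 had a row. The libraries fell into 5 groups of 3. Cycling cells received the vehicle DMSO and carry the time label 6 h. In the other 4 groups, senescence had been induced over 6 days with a dominant negative form of TRF2, a protein that protects telomeres (gene TERF2), and the cells then received DMSO for 6 h, 1 uM GNF-7 for 6 h, DMSO for 24 h or 1 uM GNF-7 for 24 h. GNF-7 is a small-molecule kinase inhibitor. No cycling cells with GNF-7 and no cycling cells at 24 h are among the libraries, so the effect of GNF-7 could be measured in senescent cells only. All groups are this 1 line, grown in tetracycline-free serum at low oxygen, and the labels do not say whether the cycling cells carried the construct of the mutant. The labels call them biological replicates without saying whether they came from separate cultures, so the p-values measure the spread between these libraries, which may be technical.

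CDK inhibitors act by binding. The proteins of the CIP/KIP family (CDKN1A, CDKN1B, CDKN1C) bind CDKs together with their cyclins, while those of the INK4 family (CDKN2A, CDKN2B, CDKN2C, CDKN2D) bind CDK4 and CDK6 and keep the D-type cyclins from activating them, which leaves the retinoblastoma protein able to hold E2F transcription factors in check. CDKN3 is of another kind, a phosphatase that takes the activating phosphate from CDKs, and its messenger is known to be made mainly by dividing cells. CDKN1A is a classic target of p53 after telomere damage, CDKN2A is widely used as a marker of senescence, and loss of the CDKN2A locus is a known feature of HT-1080.

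Total counts per library ranged from 25991007 to 32323393. Levels are given as CPM, the counts scaled to a common library size after TMM adjustment, as mean ± SD of the 3 libraries of a group. TERF2, the gene whose mutant was expressed, stood at 58.2 ± 3.65 CPM in cycling cells and at group means of 132 to 287 CPM in the 4 senescent groups. A count per gene cannot tell reads of the cell's own gene from reads of an introduced copy. MKI67, a gene of dividing cells, stood at 509 ± 24.3 CPM in cycling cells and between 39.1 and 149 CPM in the senescent groups. Group means of mesenchymal markers summed to 6427 to 7987 CPM over the 5 groups, against at most 1.92 CPM for epithelial, 1.79 for endothelial and 0.476 for blood markers. VIM was the largest part of the mesenchymal sum, at group means of 3474 to 4460 CPM. S100A4, of the same list, was scarce at 0.431 to 2.75 CPM. The share of counts from the mitochondrial genome differed between the groups, from 3.75 to 5.01% in cycling cells to 22.6 to 24.1% with GNF-7 at 24 h. When the mitochondrial genes were left out of the scaling and the test, all 30 results on the CDK inhibitor genes (6 genes in 5 comparisons) stayed on their side of the threshold. In bulk RNA, fewer cells that express a gene and less of its RNA per cell cannot be told apart.

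The upstream stretches of 3 genes are shown because, with both cell states in vehicle for 6 h, these differed most between senescent and cycling cells, CDKN1A upward and CDKN2C and CDKN3 downward. They come from RefSeq promoter sequences on GRCh38.p14, where 7 of the 8 genes had an entry, and hold only bases before the RefSeq start that lie in no annotated exon of GENCODE release 29. All are on the plus strand, 5′ to 3′. Capitals mark matches to short words searched on both strands, namely the GC box GGGCGG, the CCAAT box CCAAT and the CHR element TTTGAA or TTTAAA. CDKN1A lies at chr6:36678560-36678657, CDKN2C (the most upstream of its 3 RefSeq starts) at chr1:50960625-50960744, and CDKN3 at chr14:54396757-54396848. The stretch of CDKN1A precedes its RefSeq start at 36678714 but lies inside the GENCODE span of the gene, which begins at 36676460.
CDKN1A: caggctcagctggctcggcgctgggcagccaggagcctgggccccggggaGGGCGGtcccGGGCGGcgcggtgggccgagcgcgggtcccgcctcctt
CDKN2C: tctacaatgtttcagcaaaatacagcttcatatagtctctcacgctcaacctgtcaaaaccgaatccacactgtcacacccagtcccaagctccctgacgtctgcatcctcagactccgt
CDKN3: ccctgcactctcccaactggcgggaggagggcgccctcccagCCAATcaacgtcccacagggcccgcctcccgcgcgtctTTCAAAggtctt

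Over the full 250 bases before its start, CDKN1A held 4 GC boxes, CDKN3 held 1 CHR word and 2 CCAAT boxes, and the most upstream window of CDKN2C held none of the words searched. The 2 further start windows of CDKN2C held 5 and 1 GC boxes, and the window with 1 GC box also held 1 CCAAT box. CDKN1B held 1 GC box, 1 CHR word and 2 CCAAT boxes, and CDKN2D held 2 GC boxes and 1 CCAAT box. No window of the 7 genes held a TATA word (TATAAA) or 1 of 4 E2F words (TTTCCCGC, TTTGGCGC, TTTCGCGC, TTTGCCGC). Of 35116 promoter windows of the same length, 42.6% held a GC box, 32.0% a CCAAT box, 21.9% a CHR word, 10.7% a TATA word and 2.79% an E2F word. Words of different motifs may share letters, and a match is a description of these letters only.

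The 8 genes split into groups with different behaviour (see the plot of CPM by library). Of the 8, 2 had no count in any library (CDKN2A and CDKN2B), and 6 passed the filter on low counts and were tested. A gene was called when the edgeR quasi-likelihood test, fitted on all 15 libraries, gave a Benjamini-Hochberg adjusted p under 0.05 over 18563 genes. In senescent against cycling cells, both in vehicle at 6 h, CDKN1A and CDKN1C rose, while CDKN1B, CDKN2C, CDKN2D and CDKN3 fell. These are 6 of 6 tested genes, where 70.0% of all genes tested were called (35.6% higher and 34.4% lower). In all 6 the 3 libraries of 1 group lay wholly above those of the other, as they did for 71.5% of all genes. The median log2 fold change of the 6 was -0.62, against 0.06 over all genes tested. Shares of all genes, here and below, include scarce genes and are not matched for level. When only the 11234 genes with a mean of at least 5 CPM were kept, a larger share was called in each comparison. These were 9211 genes here, 6042 and 8142 with GNF-7 at 6 h and 24 h, 5120 for the difference of those effects and 3569 over time in vehicle.

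**Figure D1:**
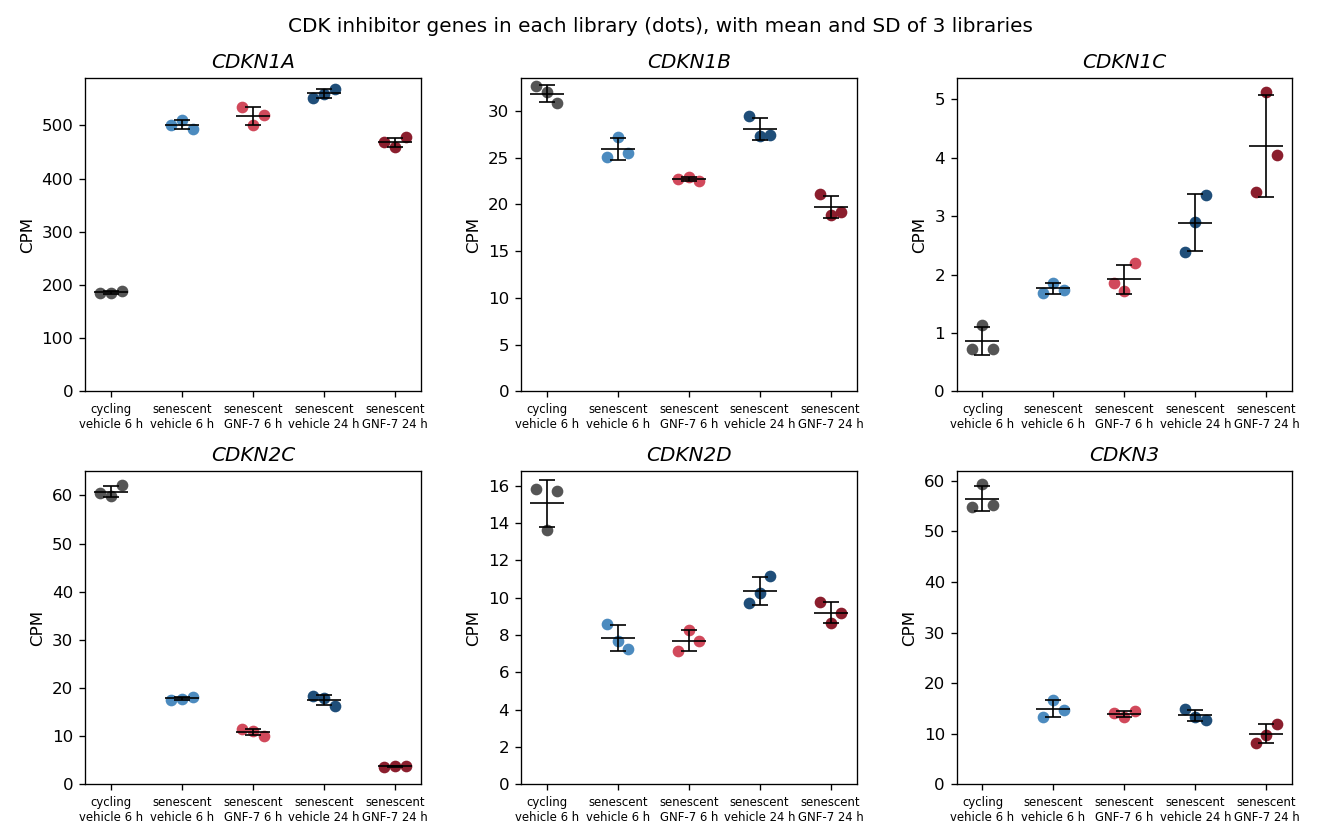
CPM of the 6 CDK inhibitor genes with counts (y axis, starting at 0) in each of the 15 libraries (dots) by group (x axis), with the mean and SD of 3 libraries as bars. CDKN1A lies between 459 and 569 CPM in every senescent library and at 184 to 189 CPM in cycling cells, while CDKN2C falls from about 60.8 CPM in cycling cells to 3.74 CPM with GNF-7 at 24 h.

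More of these genes were called with GNF-7 at 24 h than at 6 h, as was so over all genes tested. At 6 h, CDKN1B and CDKN2C fell and no tested gene rose, which is 2 of 6, where 39.3% of all genes were called (21.4% lower and 17.9% higher). Libraries of GNF-7 and vehicle did not overlap for the same 2, against 47.7% of all genes. At 24 h, CDKN1A, CDKN1B, CDKN2C and CDKN3 fell and CDKN1C rose, 5 of 6 against 58.9% of all genes (29.7% lower and 29.3% higher). The libraries did not overlap for these 5, against 63.2% of all genes. The median of the 6 log2 fold changes was -0.06 at 6 h, where the median of all genes was 0.01, and -0.36 at 24 h, where it was 0.04. The difference between the 24 h and 6 h effects, tested as an interaction, was called for CDKN1A, CDKN1B, CDKN2C and CDKN3, each more negative at 24 h. That is 4 of 6, where 30.8% of all genes were called, 18.0% more negative and 12.8% more positive.

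Time in vehicle alone was also compared, between senescent cells at 24 h and at 6 h. CDKN1A, CDKN1C and CDKN2D were higher at 24 h, 3 of 6, where 18.5% of all genes were called (9.26% higher and 9.29% lower). With total counts in place of TMM scaling this became 2 higher and 1 lower, since the call on CDKN1A was lost and CDKN3 was called lower. Of all 18563 genes, 5019 were called with total counts, against 3443 with TMM scaling. Under total counts the median over all genes was 0.20 in place of 0.06 in the senescence comparison, and -0.10 in place of 0.01 in the comparison of times. The comparisons share libraries: the vehicle libraries of senescent cells at 6 h enter the senescence comparison, the GNF-7 comparison at 6 h and the comparison of times.

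**Figure D2:**
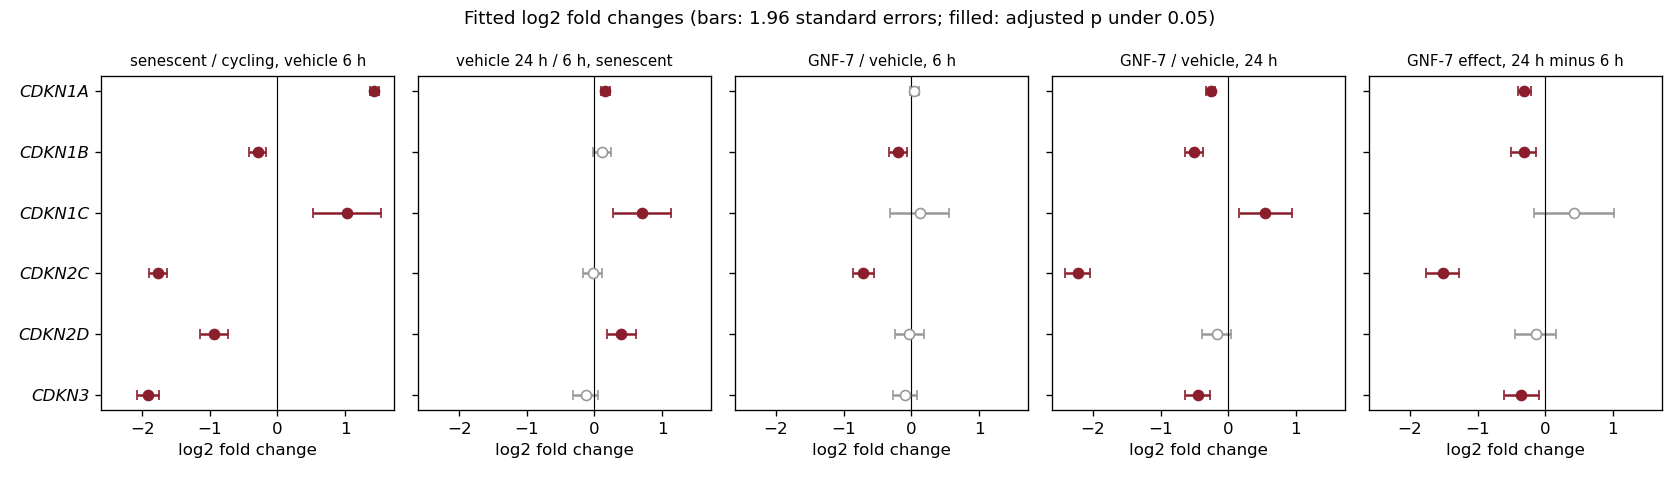
Fitted log2 fold changes of the 6 tested genes (x axis) in 5 comparisons (panels), with bars of 1.96 standard errors and filled points where the adjusted p was under 0.05. CDKN2C lies left of 0 in the senescence and both GNF-7 panels, with its lowest point at -2.23 for GNF-7 at 24 h.

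CDKN1A (ENSG00000124762, chr6:36676460-36687339, plus strand) encodes the CIP/KIP inhibitor that p53 induces. It stood at 184, 185 and 189 CPM in the 3 cycling libraries and at 501, 510 and 492 CPM in senescent vehicle libraries at 6 h. With GNF-7 for 6 h the values were 534, 500 and 520 CPM. Every senescent library lay above every cycling one, and the GNF-7 and vehicle libraries at 6 h overlapped. At 24 h, CDKN1A stood at 551, 560 and 569 CPM in vehicle and at 468, 459 and 477 CPM with GNF-7, with no overlap.

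In the edgeR fit, CDKN1A rose by 1.43 on the log2 scale in senescent cells (SE 0.0353, adjusted p = 1.14e-42), which is 2.70-fold. At 6 h the difference with GNF-7 was 0.05 (SE 0.0339, adjusted p = 0.283), with a 95% interval of -0.02 to 0.11. When only genes with a mean of at least 5 CPM were kept, the value was 0.10 and was called (adjusted p = 0.00583). At 24 h, CDKN1A fell with GNF-7, at a log2 fold change of -0.26 (SE 0.0339, adjusted p = 1.31e-09). That stricter filter gave -0.16 in its place, still called. The level with GNF-7 at 24 h was still 2.52 times that of cycling cells.

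The antisense RNA gene DINOL shares 146 exonic bases with CDKN1A on the other strand. It had 2 to 21 counts per library, with group means of 0.144 CPM in cycling cells and 0.262 to 0.576 CPM in the senescent groups. CDKN1A had 4581 to 17274 counts per library. Whether reads were counted by strand is not given in the sources used here, so reads over the shared bases cannot be told apart.

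CDKN1B (ENSG00000111276, chr12:12715058-12722371, plus strand) encodes the CIP/KIP inhibitor associated with quiescence, whose protein is removed through the SKP2 ubiquitin ligase. The cycling libraries held 32.7, 32.0 and 30.9 CPM, and senescent vehicle libraries at 6 h held 25.0, 27.3 and 25.5 CPM. GNF-7 libraries at 6 h held 22.7, 22.9 and 22.5 CPM. At 24 h, CDKN1B stood at 29.5, 27.3 and 27.4 CPM in vehicle and at 21.1, 18.9 and 19.2 CPM with GNF-7. Cycling libraries were highest and GNF-7 libraries at 24 h lowest, and no 2 groups adjacent in the order of means overlapped, although the highest vehicle library at 6 h and the lowest at 24 h were nearly equal.

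CDKN1B fell by 0.30 on the log2 scale in senescent cells (SE 0.0665, adjusted p = 8.61e-05 by edgeR). The size depended on the scaling: it was -0.16 with total counts and -0.14 with the stricter filter of 5 CPM, both still called. With GNF-7 the log2 fold change was -0.19 at 6 h (SE 0.0679, adjusted p = 0.0192) and -0.51 at 24 h (SE 0.0688, adjusted p = 2.73e-09). The call at 6 h was lost without replicate 2 of the vehicle group (-0.16, adjusted p = 0.108), without replicate 2 or 3 of the GNF-7 group (adjusted p = 0.0512 and 0.0529), and with the stricter filter of 5 CPM (-0.14, adjusted p = 0.0727). The 24 h effect differed from the 6 h effect by -0.32 (SE 0.0967, adjusted p = 0.00792). Vehicle at 24 h against 6 h gave 0.12 (SE 0.0670, adjusted p = 0.258), which did not pass, although the libraries did not overlap, as for 32.9% of all genes in that comparison.

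CDKN1C (ENSG00000129757, chr11:2883213-2885773, minus strand) encodes the third CIP/KIP inhibitor, known as an imprinted gene of development. It was the scarcest gene with counts, at 18 to 158 counts per library. Cycling libraries held 0.724, 1.14 and 0.718 CPM, and senescent vehicle libraries at 6 h held 1.69, 1.86 and 1.73 CPM. The values with GNF-7 at 6 h were 1.85, 1.71 and 2.20 CPM, which overlapped those of vehicle. At 24 h they were 2.39, 2.89 and 3.37 CPM in vehicle and 3.41, 5.13 and 4.05 CPM with GNF-7. The highest vehicle library and the lowest GNF-7 library at 24 h were thus close, without overlap.

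CDKN1C rose by 1.03 on the log2 scale in senescent cells (SE 0.256, adjusted p = 0.000337), in vehicle from 6 h to 24 h by 0.70 (SE 0.216, adjusted p = 0.0152), and with GNF-7 at 24 h by 0.55 (SE 0.198, adjusted p = 0.0145), all by edgeR. From cycling cells to GNF-7 at 24 h the mean level was 4.88 times higher. The GNF-7 call at 24 h was lost without replicate 1 of the vehicle group (0.42, adjusted p = 0.106) and without replicate 2 of the GNF-7 group (0.38, adjusted p = 0.155). The call over time was lost without replicate 3 of vehicle at 24 h (0.58, adjusted p = 0.107) or replicate 1 of vehicle at 6 h (0.67, adjusted p = 0.0546). At 6 h GNF-7 gave 0.12 (adjusted p = 0.709, interval -0.32 to 0.56), and the difference of the effects was 0.42 (SE 0.300, adjusted p = 0.312).

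CDKN2C (ENSG00000123080, chr1:50960745-50974633, plus strand), an INK4 inhibitor of CDK4 and CDK6, showed the widest range of the tested genes as a ratio of group means. Its 3 cycling libraries held 60.5, 59.8 and 62.1 CPM, and the senescent vehicle libraries at 6 h held 17.6, 17.7 and 18.2 CPM. With GNF-7 at 6 h it stood at 11.4, 11.1 and 10.2 CPM. At 24 h, vehicle libraries held 18.3, 17.8 and 16.3 CPM and GNF-7 libraries held 3.57, 3.80 and 3.85 CPM. The vehicle libraries of both times overlapped, and all GNF-7 libraries lay below all vehicle libraries.

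CDKN2C fell by 1.77 on the log2 scale in senescent cells (SE 0.0692, adjusted p = 3.03e-32), or 3.41-fold. With GNF-7 it fell by 0.71 at 6 h (SE 0.0785, adjusted p = 2.10e-11), and it fell by 2.23 at 24 h (SE 0.0935, adjusted p = 3.49e-30, 4.68-fold), all by edgeR. The 24 h effect was larger than the 6 h effect by a log2 difference of -1.52 (SE 0.124, adjusted p = 7.74e-16). These 4 calls held under all 24 alternatives, with ranges of -1.79 to -1.62, -0.75 to -0.66, -2.28 to -2.12 and -1.57 to -1.47. The mean in cycling cells was 16.2 times that with GNF-7 at 24 h. Vehicle at 24 h against 6 h gave -0.03 (SE 0.0749, adjusted p = 0.857, interval -0.17 to 0.12).

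CDKN2D (ENSG00000129355, chr19:10566462-10569059, minus strand), the other INK4 gene with counts, followed another order. It stood at 15.8, 13.6 and 15.7 CPM in cycling cells and at 8.58, 7.70 and 7.25 CPM in senescent vehicle libraries at 6 h. GNF-7 libraries at 6 h held 7.16, 8.26 and 7.67 CPM. At 24 h the values were 9.70, 10.2 and 11.2 CPM in vehicle and 9.75, 8.64 and 9.20 CPM with GNF-7. Cycling libraries were highest, those at 24 h intermediate and those at 6 h lowest, and GNF-7 and vehicle overlapped at each time.

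CDKN2D fell by 0.94 on the log2 scale in senescent cells (SE 0.106, adjusted p = 7.90e-12) and rose in vehicle from 6 h to 24 h by 0.40 (SE 0.109, adjusted p = 0.00554) in the edgeR fit. No GNF-7 effect on CDKN2D passed the test. The value was -0.03 at 6 h (adjusted p = 0.872, interval -0.25 to 0.19) and -0.17 at 24 h (adjusted p = 0.170, interval -0.38 to 0.04). The difference of the effects was -0.14 (SE 0.155, adjusted p = 0.547). The difference between the GNF-7 effects on CDKN2C and CDKN2D was not tested.

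CDKN2A (ENSG00000147889, chr9:21967753-21995301, minus strand) and CDKN2B (ENSG00000147883, chr9:22002903-22009363, minus strand), the paired INK4 genes of chromosome band 9p21, had 0 counts in all 15 libraries. CDKN2A also encodes ARF, a protein that stabilises p53. A count of 0 allows up to 3 counts at the 95% level, which is 0.0947 to 0.121 CPM in single libraries and 0.00677 CPM over the 443245218 counts of all libraries. It covers the error of counting alone, as reads that carry no molecular identifier may be copies of 1 molecule. Of 19902 protein-coding genes, 1965 (9.87%) likewise had 0 counts in every library. With both genes at 0 in every group, no fold change can be given.

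The genes next to them were read in the same libraries. CDKN2A-DT, which lies beside CDKN2A, had 0 counts throughout, and MTAP, the next coding gene on that side, had 2 to 22 counts per library (mean 0.298 CPM over all libraries). CDKN2B-AS1, an antisense RNA that spans CDKN2B and shares 341 exonic bases with CDKN2A, had 164 to 317 counts per library. On the far side DMRTA1 had 131 to 251 counts, and beyond MTAP the genes KLHL9 and FOCAD had mean levels of 55.9 and 57.2 CPM. Of the 9 annotated genes between the end of MTAP and the start of DMRTA1, 7 had 0 counts in all libraries, 1 had 3 counts in total, and the other was CDKN2B-AS1. Within 1000 kb on either side, 38 of 60 genes and 16 of 24 coding genes had 0 counts in all libraries, with interferon genes among them.

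**Figure D3:**
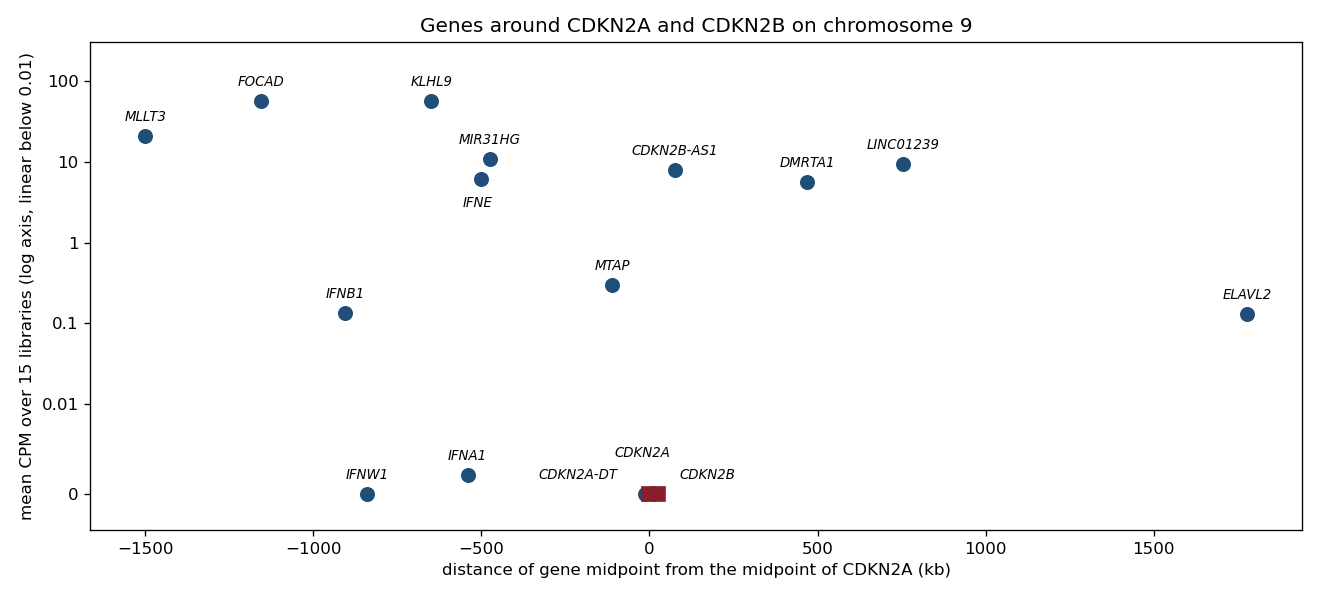
Mean CPM over 15 libraries (y axis, logarithmic above 0.01 and linear below) of listed genes around CDKN2A by the distance of their midpoints from its own (x axis, kb). CDKN2A and CDKN2B (squares) and CDKN2A-DT lie at 0, MTAP at 0.298 CPM, and CDKN2B-AS1 at 7.88 CPM.

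CDKN2B-AS1 changed, while CDKN2A and CDKN2B, which it overlaps, had no counts. It spans chr9:21994778-22121097 and reaches past the end of CDKN2B at 22009363, and a count per gene does not show where its reads lie. Its group means were 8.12 ± 0.725 CPM in cycling cells, 5.78 ± 0.309 in senescent vehicle at 6 h, 8.83 ± 1.15 with GNF-7 at 6 h, 7.10 ± 0.437 in vehicle at 24 h and 9.55 ± 0.709 with GNF-7 at 24 h. In the edgeR fit it fell by 0.49 on the log2 scale in senescent cells (adjusted p = 0.000465) and rose with GNF-7 by 0.61 at 6 h (adjusted p = 3.89e-05) and 0.42 at 24 h (adjusted p = 0.00177). The difference between these GNF-7 effects was not called (adjusted p = 0.464). Because counting by strand is not given in the sources used here, the strand of its reads is uncertain. Of the 20 genes listed around the locus, 13 were tested. In senescent cells 3 were called higher and 6 lower (4 and 5 with total counts), 9 of 13, near the 70.0% of all genes called there. Among those higher were IFNE, an interferon gene, at a log2 fold change of 2.18 and the noncoding MIR31HG at 1.21. In the other direction, CAAP1 went from 33.1 ± 0.697 CPM in cycling cells to 18.9 ± 1.24 CPM in senescent vehicle at 6 h. PLAA went from 89.8 ± 3.10 to 65.5 ± 0.929 CPM. With GNF-7 at 24 h 4 were higher and 4 lower, 8 of 13 against 58.9% of all genes, with the noncoding LINC01239 at 1.36 and MIR31HG at -0.94.

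CDKN3 (ENSG00000100526, chr14:54396849-54420218, plus strand), the phosphatase, was high in cycling cells, at 54.8, 59.3 and 55.2 CPM. Senescent vehicle libraries at 6 h held 13.4, 16.8 and 14.7 CPM, and GNF-7 libraries at 6 h held 14.2, 13.3 and 14.5 CPM. At 24 h the values were 14.8, 13.3 and 12.7 CPM in vehicle and 8.22, 9.78 and 12.0 CPM with GNF-7. Cycling libraries lay far above all others, both treatments overlapped at 6 h, and at 24 h the highest GNF-7 library lay just under the lowest vehicle library.

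CDKN3 fell by 1.92 on the log2 scale in senescent cells (SE 0.0831, adjusted p = 1.10e-27), or 3.77-fold, and with GNF-7 at 24 h it fell by 0.45 (SE 0.0967, adjusted p = 6.14e-05), both by edgeR. At 6 h GNF-7 gave -0.10 (adjusted p = 0.430, interval -0.28 to 0.08). The difference of the effects was -0.36 (SE 0.133, adjusted p = 0.0349), and this call was lost in 9 of 24 alternatives. The stricter filter of 5 CPM ended it (-0.31), as did fits with only the groups compared (-0.36) and leaving out any 1 of 7 libraries (-0.35 to -0.24). These were replicates 1 and 3 of vehicle at 6 h, replicates 1 and 3 of GNF-7 at 6 h, replicate 1 of vehicle at 24 h, and replicates 1 and 2 of GNF-7 at 24 h. Vehicle at 24 h against 6 h gave -0.13 (adjusted p = 0.372), and -0.24 (adjusted p = 0.0456) with total counts.

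Levels of different genes were compared per kilobase of exon (CPM per kb). In cycling cells the order was CDKN1A at 61.0 ± 0.833, CDKN3 at 30.7 ± 1.35, CDKN2C at 18.3 ± 0.343, CDKN1B at 11.3 ± 0.332, CDKN2D at 10.0 ± 0.835 and CDKN1C at 0.347 ± 0.0967 CPM per kb. In senescent vehicle at 6 h it was CDKN1A at 164 ± 2.94, CDKN1B at 9.23 ± 0.414, CDKN3 at 8.14 ± 0.930, CDKN2C at 5.38 ± 0.106, CDKN2D at 5.22 ± 0.448 and CDKN1C at 0.711 ± 0.0365 CPM per kb. The values of CDKN2C and CDKN2D there differed by less than the SD of CDKN2D. With GNF-7 at 24 h, CDKN2C stood at 1.13 ± 0.0445 and CDKN1C at 1.69 ± 0.352 CPM per kb, so that CDKN2C had become the scarcest of the 6. CDKN2D, at 6.12 ± 0.370 CPM per kb, was then above it.

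As a share of the summed CPM per kb of the 8 genes, CDKN1A made up 46.3 ± 0.420% in cycling cells and 85.1 ± 0.364% in senescent vehicle at 6 h. It made up 87.2 ± 0.416% with GNF-7 at 6 h, 85.7 ± 0.436% in vehicle at 24 h and 87.8 ± 0.229% with GNF-7 at 24 h. CDKN3 went from 23.3 ± 1.01% in cycling cells to 4.22 ± 0.420% in senescent vehicle at 6 h, and CDKN2C from 13.9 ± 0.220% to 2.79 ± 0.102%. With GNF-7 at 24 h the share of CDKN2C was 0.645 ± 0.0250%. Shares of 1 sum are tied, so a rise of CDKN1A lowers the others.

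**Figure D4:**
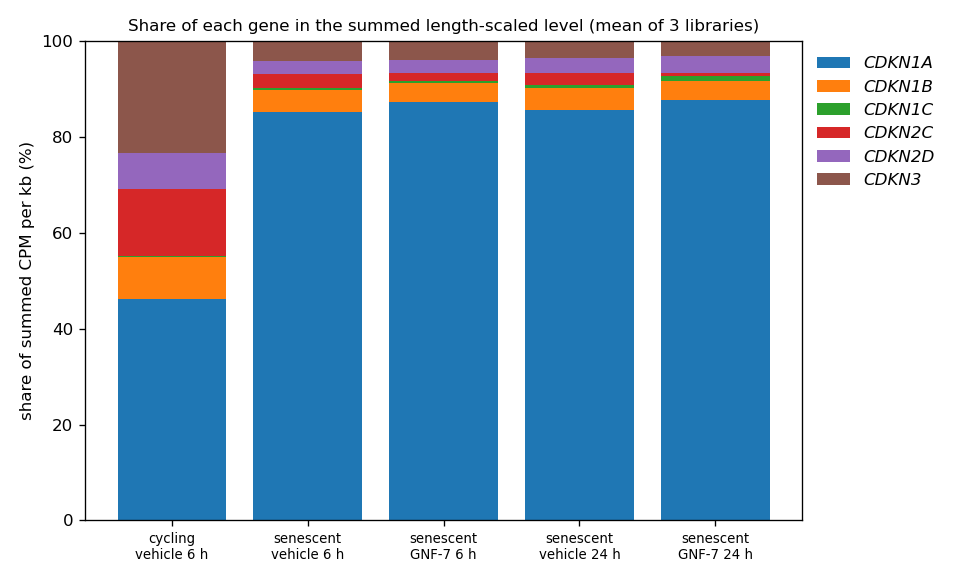
Stacked bars of the share (%) of each gene in the summed CPM per kb of the CDK inhibitor genes, as the mean of 3 libraries for each of the 5 groups (x axis). CDKN1A takes 46.3% in cycling cells and 85.1 to 87.8% in the 4 senescent groups.

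Across the 15 libraries, log2 CPM of CDKN1B and CDKN2C had a Pearson correlation of 0.95, CDKN2C and CDKN3 of 0.89, and CDKN1A and CDKN3 of -0.93. CDKN1A had r = -0.59 with CDKN1B and -0.83 with CDKN2D. The points are 5 groups of 3 libraries, so these values mostly describe the order of the group means. Among 11069 other genes with a symbol and a mean of at least 5 CPM, the most alike in pattern by Pearson r over the same 15 libraries were SPOCK1 (0.997) and IL32 (0.995) for CDKN1A, DCAF6 (0.987) and PGAM1 (0.981) for CDKN1B, and YWHAQ (0.997) and ARHGAP18 (0.996) for CDKN2C. For CDKN2D they were RPL6 (0.974) and C12orf57 (0.968). For CDKN3 they were H2AZ2, CENPH and RAD21 (each 0.991).

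The kinases and cyclins that these inhibitors act on were read as a list of 12 genes, all tested. In senescent cells 10 were called lower and 1 higher, where 34.4% of all genes were lower and 35.6% higher, and the median log2 fold change was -1.03, against 0.06 over all genes. CDK1, the mitotic kinase, was lower by a log2 fold change of -2.70, CDK2, the S-phase kinase, by -1.57, and CCNE2, an E-type cyclin, by -3.18. CDK4 and CDK6, the targets of the INK4 proteins, gave -0.94 and -0.65. The 1 gene called higher was CCND1 (0.11), the D-type cyclin of these kinases, named after its value was seen.

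With GNF-7, 9 of the 12 were called lower and 2 higher at both times, with medians of -0.43 at 6 h and -0.97 at 24 h. Of all genes, 21.4% were lower and 17.9% higher at 6 h, and 29.7% were lower and 29.3% higher at 24 h. The medians over all genes were 0.01 and 0.04. CDK6 fell from 94.1 ± 0.661 to 70.0 ± 4.34 CPM at 6 h and from 84.0 ± 3.44 to 38.1 ± 2.04 CPM at 24 h, and CCND1 from 836 ± 12.7 to 602 ± 8.83 CPM and from 886 ± 1.93 to 445 ± 13.3 CPM. CDK1 was lower at 24 h by a log2 fold change of -1.88. The 2 genes called higher, named after their values were seen, were CDK4 (0.18 at 6 h and 0.13 at 24 h) and CCND2. CCND2 was scarce, at 1 to 5 counts per library in vehicle and 29 to 35 with GNF-7 at 24 h. CDK4 stood at 187 ± 9.14 CPM with GNF-7 at 24 h, against 171 ± 4.91 in vehicle, while its inhibitor CDKN2C and the related kinase CDK6 were lower.

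**Figure D5:**
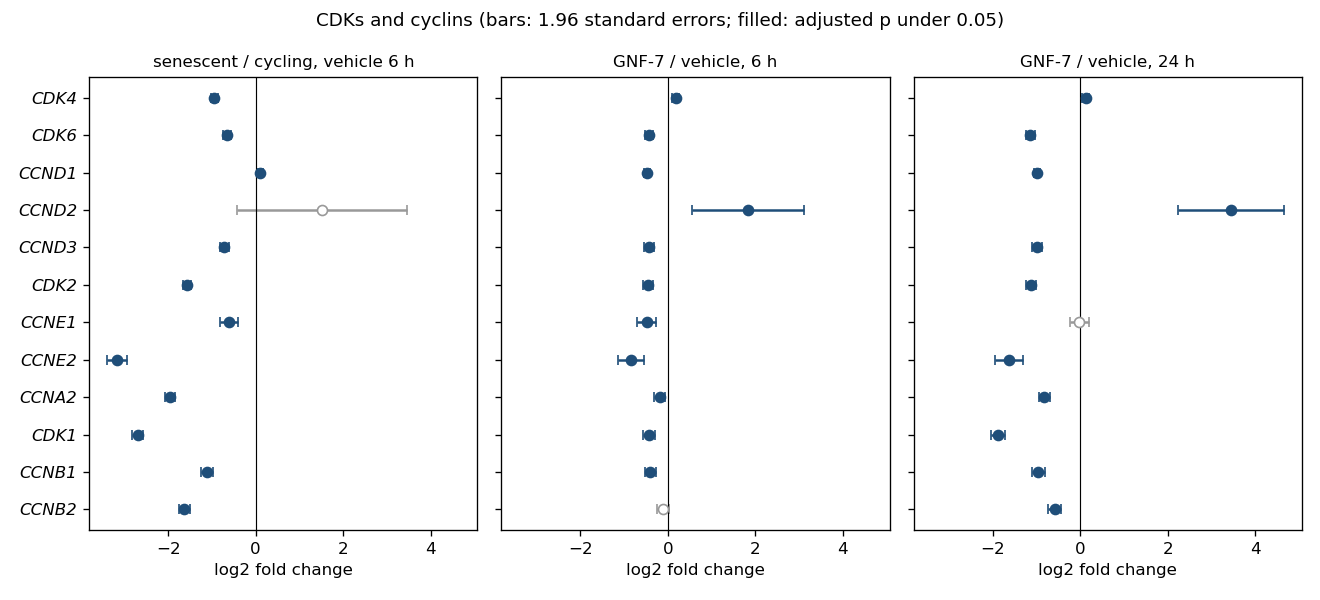
Fitted log2 fold changes (x axis) of 12 CDKs and cyclins in the senescence comparison and the GNF-7 comparisons at 6 h and 24 h (panels), with bars of 1.96 standard errors and filled points where the adjusted p was under 0.05. CDK6 and CCND1 lie at -1.14 and -0.99 with GNF-7 at 24 h, and CDK4 lies right of 0 at both times.

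The retinoblastoma, E2F and DREAM list of 20 genes, which act downstream of the CDKs, had 17 called lower and 1 higher in senescent cells (median -0.89), against 34.4% and 35.6% of all genes (median 0.06). MYBL2 and FOXM1, activators of mitotic genes, were lower by log2 fold changes of -3.37 and -1.86, and TFDP1, the E2F partner, by -1.47. The 1 called higher, named after its value was seen, was LIN37 (0.93), a DREAM subunit. With GNF-7, 4 were higher and 9 lower at 6 h, and 5 were higher and 11 lower at 24 h, where 39.3% and 58.9% of all genes were called in either direction. E2F7, a repressor of E2F targets, was higher at both times, by 0.72 and 1.00, while at 24 h MYBL2 and FOXM1 were lower at -2.29 and -0.92.

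Genes of the p53 route to CDKN1A, 14 in number, had 8 called higher and 4 lower in senescent cells (median 0.38), against 35.6% and 34.4% of all genes (median 0.06). MDM2, the ligase that p53 itself induces, stood at 230 CPM in cycling cells and at 652 CPM in senescent ones with vehicle at 6 h, a log2 fold change of 1.50. The p53 targets BTG2 (1.24) and ZMAT3 (0.95) were also higher. With GNF-7, 7 were higher and 4 lower at 6 h, against 17.9% and 21.4% of all genes, with MDM2 at 0.45, MDM4 at 0.49 and GADD45A at 0.84, while CDKN1A was not called at that time. At 24 h, 4 were higher and 5 lower (4 and 3 with total counts), a share near the 58.9% of all genes called, with MDM4 at 0.73, GADD45A at 0.83 and the kinase gene ATR at -0.42, while CDKN1A fell.

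The list of genes for the turnover of CIP/KIP proteins held 15 genes, of which 12 were called lower and 2 higher in senescent cells (median -0.58), against 34.4% and 35.6% of all genes (median 0.06). SKP2, the ligase subunit that recognises CDKN1B, went from 95.0 CPM in cycling cells to 14.2 CPM in senescent vehicle at 6 h, and DTL, the subunit that recognises CDKN1A on DNA, from 89.0 to 16.3 CPM. With GNF-7, 9 were lower and 1 higher at 6 h, where 21.4% of all genes were lower and 17.9% higher. After 24 h, 11 were lower and 1 higher, against 29.7% and 29.3% of all genes. At 24 h DTL stood at 15.4 CPM in vehicle and 2.47 CPM with GNF-7, a log2 fold change of -2.64. The level of a protein is not measured by these libraries.

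Transcriptional regulators of CIP/KIP and INK4 genes numbered 30. In senescent cells 10 were called higher and 15 lower (13 and 13 with total counts), against 35.6% and 34.4% of all genes, and the median was -0.06 against 0.06. Among those called were EZH2 at -2.12 and SUZ12 at -1.05, subunits of the Polycomb complex that silences CDKN2A, and KDM6B at 1.21, the demethylase that acts against that mark. With GNF-7, 7 were higher and 15 lower at 6 h, and 8 were higher and 17 lower at 24 h, where 39.3% and 58.9% of all genes were called in either direction. SMAD3, a mediator of TGF-beta signals, was lower at both times (-0.66 and -0.99), and its receptor gene TGFBR2 (-0.86) and ID3 (-1.31) were lower at 24 h. The related gene SMAD2 went the other way at 6 h, from 136 ± 0.349 CPM in vehicle to 224 ± 5.49 CPM with GNF-7. At 24 h SMAD2 stood at 120 ± 5.81 CPM in vehicle and 131 ± 3.90 CPM with GNF-7. ETS2 went from 64.6 to 118 CPM at 6 h and from 52.3 to 42.2 CPM at 24 h. Over time in vehicle, 1 of the 30 was called higher and 11 lower, against 9.26% and 9.29% of all genes. With total counts these became 1 and 18, where 5019 of 18563 genes were called in either direction, against 3443 with TMM scaling.

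For the same lists, the 24 h effect of GNF-7 was called more negative than the 6 h effect in 9 of 12 CDKs and cyclins (1 more positive), in 9 of 15 turnover genes (0 more positive) and in 12 of 30 regulators (2 more positive). The retinoblastoma, E2F and DREAM list had 6 more negative and 4 more positive of 20, and the p53 route 5 and 1 of 14. Of all genes, 18.0% were called more negative and 12.8% more positive. Between 6 h and 24 h in vehicle, 4 CDKs and cyclins were lower, 2 genes of the E2F list were lower, and the p53 route had 3 higher and 1 lower. Of all genes 18.5% were called over time, so that 2 of 20 in the E2F list lies below that share. The scaling moved several of these counts over time, since with total counts they became 5, 8, and 0 higher with 3 lower. Of all 18563 genes, 5019 were called over time with total counts, against 3443 with TMM scaling. Under total counts the turnover list went from 3 higher and 2 lower to 0 higher and 7 lower. Single libraries moved the counts too. That of CDKs and cyclins became 1 or 2 without replicate 1 or 3 of vehicle at 24 h or replicate 3 at 6 h. With the stricter filter of 5 CPM it was 7 (2 higher and 5 lower), where 3569 of 11234 genes were called. The count of the E2F list became 0 or 1 when any 1 vehicle library was left out, those of cycling cells included. It became 0 without replicate 3 of GNF-7 at 6 h or at 24 h, and 1 with no filter on low counts, DESeq2 or voom. The p53 route had 1 higher and 1 lower without replicate 1 of vehicle at 6 h.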

How the data were processed

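The values deposited by the authors are whole-number read counts for each Ensembl gene, not normalized. The mRNA kit was stranded and started from total RNA, per the labels. The submitters' processing notes name bcl2fastq 2.20.0.422, STAR 2.7.9a, featureCounts 1.5.1 and GRCh38. The annotation release and the strand setting of counting are not given in the sources used here. Of 60673 lines, 3 were left out (1 gene entry broken over lines). Identifiers were matched to symbols for 60400 genes (99.55%), and positions and exon lengths were taken from GENCODE release 29.

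The counts were tested with edgeR 4.0.16 (R 4.3.3), by the quasi-likelihood test with robust estimates after filterByExpr and TMM scaling, in 1 fit of 15 libraries by group, and adjusted over 18563 genes by the Benjamini-Hochberg method. The standard error is the log2 fold change divided by the square root of F, and intervals span 1.96 standard errors on each side. The common biological coefficient of variation was 4.64%. Code was tested on simulated counts. Genes named are the 8 inhibitors, the genes most alike in pattern, the 3 genes of a list with the smallest p in a comparison, overlapping genes and neighbours on chromosome 9. Not all of these are printed, and CDK4 and CDK6 are named besides as the targets of INK4 proteins. Members and lists were chosen with earlier results of these data known. Libraries of a group differed by more than sampling noise in every pair.

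Same-numbered replicates came from no labelled shared source. Their deviations from group means correlated at over 0.1 in every pair for vehicle and GNF-7 at 24 h (0.11 to 0.154) and for GNF-7 at 6 h and 24 h (0.126 to 0.254), which enter the interaction, but not in the other pairs of groups. A replicate block was 1 of the alternatives. The others were RLE factors, total counts, mitochondrial genes left out, no filter on low counts, a stricter filter (mean of at least 5 CPM), DESeq2 1.42.0, limma 3.58.1 voom, only the groups compared, and leaving out each of 15 libraries.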

Additional observations from a re-analysis of the deposited data

Results flagged for a closer look

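The GNF-7 effect at 24 h differed from that at 6 h in the interaction test of the edgeR fit for 4 genes, each with a more negative log2 fold change at 24 h. That is 4 of 6 tested, where 30.8% of all genes were called, 18.0% more negative and 12.8% more positive. The difference was -1.52 for CDKN2C, -0.31 for CDKN1A, -0.32 for CDKN1B and -0.36 for CDKN3. The call on CDKN3 was lost in 9 of 24 alternatives, 7 of them with a single library left out. For CDKN2C, all 3 GNF-7 libraries lay below all 3 vehicle libraries at both times. For CDKN1A, the libraries of both treatments overlapped at 6 h and all 3 GNF-7 libraries were lower at 24 h. Groups of 3 libraries were not searched for single libraries that stand apart.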

How the results depend on the processing

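Each of 30 results (6 genes in 5 comparisons) was recomputed under up to 24 alternatives, and 691 of 715 values kept their direction and their side of the threshold. In 18 a call was lost, in 2 a call was gained and in 4 the direction turned. All 6 calls in the senescence comparison held throughout, apart from CDKN1C under the stricter filter of 5 CPM, which removed that gene. The number of CDK inhibitor genes called with GNF-7 at 6 h ranged from 1 to 2 when single libraries were left out, against 2 with all. For CDKN2D with GNF-7 at 6 h, -0.028 became 0.025 with the stricter filter, and 0.038 and 0.018 without replicate 1 of vehicle or of GNF-7, in a range of -0.083 to 0.038 over all alternatives. For CDKN2C over time in vehicle, -0.027 became 0.02 without replicate 3 at 24 h, in a range of -0.062 to 0.02 when single libraries were left out and of -0.138 to 0.02 over all alternatives. None of these values passed the test, and the cause was not tested. The replicate block gave 6, 2, 5, 4 and 3 genes called in the senescence, GNF-7 6 h, GNF-7 24 h, interaction and time comparisons, the same counts as without it, and changed no call on these genes. Depth limits CDKN1C, at 18 to 158 counts per library, and sets the limit on CDKN2A and CDKN2B.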
